A study of Homo sapiens with 6 samples.

Results

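Immediate early genes are transcribed within minutes of a stimulus, without the need for new protein synthesis. They encode transcription factors and short-lived regulators, and their promoters are held ready by factors such as the serum response factor (SRF), the cAMP response element binding proteins (CREB, ATF) and the ETS proteins. In liver cells they respond to growth factors, stress and injury. The chromatin of 10 of these genes was examined here, chosen by name from the 20033 protein-coding genes of GENCODE 44. They encode the AP-1 proteins FOS, FOSB, JUN, JUNB and JUND, the stress-induced bZIP factor ATF3, the zinc-finger factor EGR1, the growth regulator MYC, the nuclear protein IER2 and DUSP1, a phosphatase that switches MAP kinases off. For each gene, all peaks that shared at least 1 bp with the gene body plus 5 kb on each side were collected.

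The data were ChIP-seq peak lists from cells labelled HepG2, which is a human liver cancer line. In ChIP-seq, chromatin fragments bound by an antibody are isolated and their DNA is sequenced. The antibodies recognised acetylated lysine (Kac) or benzoylated lysine (Kbz) on any histone, so neither the histone nor the residue is known. The groups were untreated control cells and cells given sodium benzoate (SB, 10 mM for 24 h), with 1 library each for input, Kac and Kbz. Peak lists of control Kac (70326 peaks), SB Kac (63282) and SB Kbz (24308) were used. The labels state that the control Kbz library gave no peaks, so Kbz had no untreated counterpart. With 1 library per group there was no replicate error and no test between groups, and every difference below compares lists. A peak list holds no read totals, so depth was unknown, and a deeper library yields more and longer peaks. The false discovery rate named in the methods corresponds to a −log10 q of 2. A lower value was found for 18.6% of control Kac, 24.8% of SB Kac and 11.4% of Kbz peaks. The deposited values are means over a peak, so the cutoff applied in calling cannot be read from them.

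The label of the cell line was checked first, at 15 liver genes. Of these, 14 had their canonical transcription start site (TSS) under no peak in any of the 3 lists, among them the genes of albumin (ALB), alpha-fetoprotein (AFP), apolipoprotein A-I (APOA1) and HNF4A, and 1 had it under a peak in each list. A bare start did not mean an empty window. Control Kac lay in the windows of 9 of the 15, SB Kac of 10 and Kbz of 5. Over all protein-coding genes these were 82.6%, 81.4% and 72.3%. HNF4A had 8, 7 and 2 peaks, all away from its TSS. Of 10 transcription factor genes of kidney development, control Kac covered the TSS of 7, SB Kac that of 8 and Kbz that of 6. Of 8 neuronal genes these were 1, 3 and 2. Over all protein-coding genes the shares with the TSS covered were 59.1%, 60.4% and 45.8%. The kidney genes were thus near the background and point to no tissue, whereas the bare starts of the liver genes went against the label in all 3 libraries, and the cells are called here by their label only. The part of cell identity in the results below was not tested.

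Several of these promoters carry binding sequences known from immediate early genes, and the stretches on which the results turn are shown first. The 500 bp upstream of the canonical TSS were searched on both strands for the CArG box (the SRF site), TGACGTCA (the cAMP response element, CRE), TGANTCA (AP-1), TGATGNAA (the amino acid response type bound by ATF4 with C/EBP proteins), GCGNGGGCG (EGR), GGGCGG (Sp factors), CCAAT and TATAAA. Matches to GCGNGGGCG and GGGCGG can share bases, and matches that share bases or touch, as the CRE and the next GGGCGG of DUSP1 do, form 1 run of capitals. In the lines that follow, read 5′ to 3′ along the gene's strand, capitals mark matches to these motifs. FOS and EGR1 are shown for their CArG boxes, with 2 stretches for EGR1, FOSB for its CRE and CArG box, and DUSP1 for its CRE. ATF3 is shown for TGATGNAA. JUND is shown for the middle of the strong peak upstream of its start.
FOS (hg38, chr14:75278508-75278806, plus strand): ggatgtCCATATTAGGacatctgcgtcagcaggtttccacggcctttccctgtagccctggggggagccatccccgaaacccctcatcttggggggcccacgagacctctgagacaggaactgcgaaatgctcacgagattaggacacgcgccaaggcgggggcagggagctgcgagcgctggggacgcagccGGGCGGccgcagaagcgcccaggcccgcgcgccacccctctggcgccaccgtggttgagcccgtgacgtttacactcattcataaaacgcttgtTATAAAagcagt
EGR1, distal (hg38, chr5:138465055-138465130, plus strand): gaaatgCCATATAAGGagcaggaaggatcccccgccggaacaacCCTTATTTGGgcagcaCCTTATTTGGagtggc
EGR1, proximal (hg38, chr5:138465368-138465411, plus strand): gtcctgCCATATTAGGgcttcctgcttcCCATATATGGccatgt
FOSB (hg38, chr19:45467665-45467737, plus strand): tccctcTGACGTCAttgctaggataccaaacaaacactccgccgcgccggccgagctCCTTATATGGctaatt
DUSP1 (hg38, chr5:172771214-172771333, minus strand): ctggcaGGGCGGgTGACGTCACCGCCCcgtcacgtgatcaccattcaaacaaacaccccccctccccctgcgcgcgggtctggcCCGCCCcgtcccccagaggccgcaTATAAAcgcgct
ATF3 (hg38, chr1:212608552-212608753, plus strand): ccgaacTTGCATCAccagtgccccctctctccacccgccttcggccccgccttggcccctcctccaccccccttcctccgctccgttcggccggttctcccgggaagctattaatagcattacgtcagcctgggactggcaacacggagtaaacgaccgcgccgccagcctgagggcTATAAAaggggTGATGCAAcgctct
JUND, middle of the upstream peak (hg38, chr19:18282496-18282645, minus strand): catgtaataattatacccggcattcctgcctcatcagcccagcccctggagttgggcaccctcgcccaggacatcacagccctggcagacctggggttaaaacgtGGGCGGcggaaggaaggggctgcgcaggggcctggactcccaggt

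CArG boxes were found at 3 of the 10 genes, against 2.38% of all protein-coding promoters. EGR1 had 5, which began 418, 380, 364, 105 and 83 bp before its TSS, FOS had 1 at 314 bp and FOSB 1 at 274 bp. TGACGTCA was present at FOSB (325 bp), JUND (200 bp) and DUSP1 (125 bp), against 2.90% of all promoters, and TGATGNAA at ATF3 alone (203 and 21 bp), against 4.75%. JUN, JUNB, IER2 and MYC held none of these 3 motifs. No member held TGANTCA in this window, a motif of 9.74% of promoters. GCGNGGGCG was found at FOSB, JUND and EGR1 (15.4% of all promoters), GGGCGG at 8 members (65.1%), CCAAT at 4 (50.2%) and TATAAA at 6 (18.1%). The promoters of the 10 genes were GC-rich, from 59.2% for MYC to 77.2% for JUND, with a median of 66.6% against 58.4% over all promoters. A match describes letters only and is not evidence that a factor was bound. Only the letters given above were searched, so variants were not counted, and a missing match does not show that a site is absent.

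All 10 genes had at least 1 peak of each list in their window. This by itself was common: 82.6% of protein-coding genes had control Kac, 81.4% SB Kac and 72.3% Kbz in the same kind of window. In total 27 peaks of control Kac, 29 of SB Kac and 19 of Kbz fell into these windows. At the canonical TSS, control Kac covered 9 of 10 genes (59.1% of all protein-coding genes), SB Kac 9 (60.4%) and Kbz 6 (45.8%). The one without Kac at its start was JUND. The others without Kbz at the start were FOSB, EGR1 and MYC, each with Kbz elsewhere in its window.

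The extent of the marks differed more from the background than their presence did. The median share of the window under control Kac was 43.0%, against 7.24% over all protein-coding genes. For SB Kac it was 45.9% against 7.14%, and for Kbz 17.2% against 2.32%. Immediate early genes are short, with a median body of 4163 bp against 27471 bp, so the promoter fills more of their windows. Within a fixed 5 kb on each side of the TSS the gap was narrower. Here the median was 6075 bp under control Kac against 2161 bp, 6079 bp under SB Kac against 2203 bp and 2530.5 bp under Kbz against 1010 bp. Extent was not strength. Peaks over a TSS were ranked within their list by fold, the authors' ratio of read density over background. For control Kac the median percentile was 91.7 against 83.8 over all genes. For SB Kac it was lower than over all genes, 78.6 against 87.2, and so it was for Kbz, 58.8 against 70.8.

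By share of the window, a measure that favours short genes, every member stood above most genes. The lowest share of control Kac among them, 25.7% at MYC, was at percentile 84.5 of all protein-coding genes, the lowest of SB Kac, 25.7% at FOS, at 85.2, and the lowest of Kbz, 7.93% at FOS, at 79.3. Narrow coverage of all marks was found at FOS (29.3% control Kac, 25.7% SB Kac and 7.93% Kbz) and MYC (25.7%, 26.5% and 9.09%). FOSB (64.6%, 62.2% and 13.4%) and ATF3 (51.2%, 45.9% and 8.39%) had wide Kac with little Kbz, and EGR1 (34.5%, 45.9% and 11.0%) was between them. The window of ATF3 was 65.4 kb long, however. Within 5 kb of its TSS Kbz took up 3030 bp, more than the 2303 bp at JUND. By share, JUN (39.0%, 45.8% and 26.4%) and JUND (36.2%, 35.1% and 22.1%) had more Kbz than FOSB, ATF3 and EGR1. Their control Kac was less than at FOSB and ATF3, but SB Kac at JUN was close to that at ATF3. The order of the genes by Kbz was thus not their order by Kac. At the fixed width of 5 kb on each side, all members also exceeded the medians of all genes, some only slightly. The lowest under control Kac was JUND, with 3808 bp against an upper quartile of 3783 bp. In the other lists FOS was lowest. There SB Kac took up 2628 bp, where the median was 2203 bp and the upper quartile 3839 bp. Kbz took up 1063 bp, where these were 1010 and 1906 bp.

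**Figure D1:**
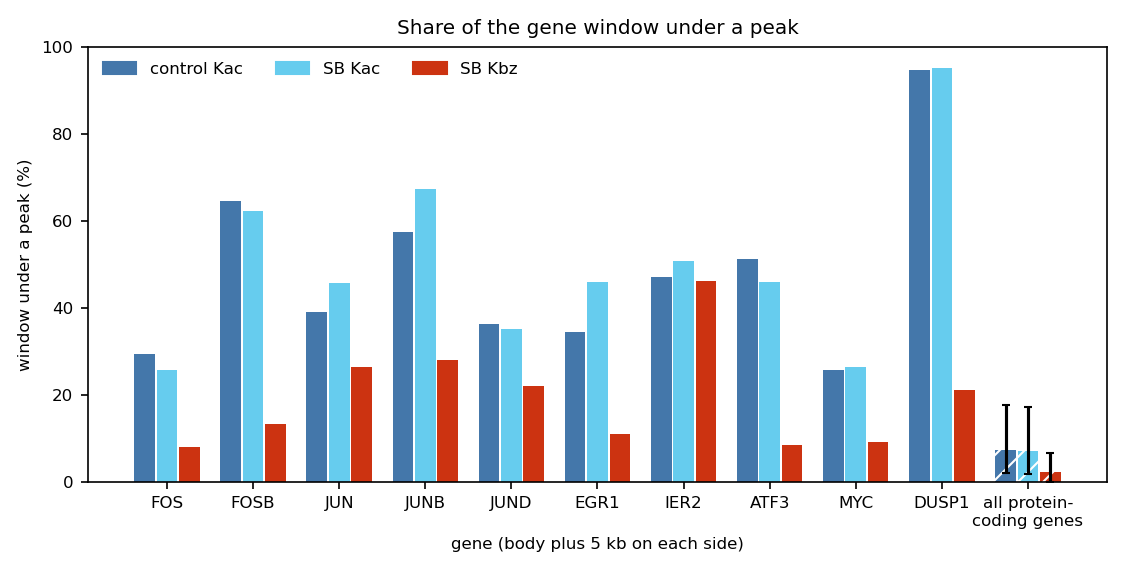
Share of each gene window (body plus 5 kb on each side, in percent) under a peak of control Kac, SB Kac and SB Kbz, 1 library each. The last bars give the median over 20033 protein-coding genes, with lines from the lower to the upper quartile. DUSP1 stands highest for Kac (94.7% and 95.1%) and IER2 for Kbz (46.2%).

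DUSP1 had the widest acetylation. A single control Kac peak of 19055 bp (chromosome 5, 172763795 to 172782849) ran from 11654 bp upstream of the TSS to 7400 bp downstream, past the end of the gene. Only 62 of the 70326 control Kac peaks were longer. The SB Kac peak of 17886 bp had nearly the same downstream end, at 7463 bp, and an upstream end at 10422 bp, with 60 of 63282 peaks longer. Its rank by fold was lower in the SB list, at percentile 78.6 against 92.2, where fold is the authors' ratio of read density over background. Benzoylation took a small part of this domain: 1 Kbz peak of 2758 bp (172769781 to 172772538) lay from 1343 bp upstream to 1414 bp downstream. It covered the CRE shown above, and it made up 22.1% of the SB Kac bases of the window.

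IER2 was the opposite case. Its control Kac peak (chromosome 19, 13149685 to 13156505) was 6821 bp long, its SB Kac peak 7349 bp and its Kbz peak (13149528 to 13156228) 6701 bp, all of them over the whole gene. Of the 24308 Kbz peaks, 80 were longer. Kbz lay on 91.2% of the SB Kac bases here, against a median of 37.0% over the 16298 protein-coding genes with SB Kac. The TSS of STX10, which encodes a syntaxin, lies 36 bp from that of IER2, so the peaks cannot be given to one gene or the other.

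JUN and JUNB, intronless genes of AP-1 subunits, both had broad peaks over the start in all 3 lists. At JUN (chromosome 1) control Kac reached from 2835 bp upstream to 3870 bp downstream of the TSS (percentile 95.0 by fold), and SB Kac from 2918 to 4963 bp (95.1). The Kbz peak of 4535 bp (58780992 to 58785526) was inside both, with 334 Kbz peaks longer, and stood at percentile 84.0. JUNB (chromosome 19) had 3 peaks in each list. The control Kac peak over its TSS was 5574 bp long and the SB Kac peak 6713 bp, and both took in the whole gene. Its Kbz peak at the start (12790926 to 12793232) covered 95.5% of the gene body. It stood at percentile 42.1, below the lower quartile of 51.3 for Kbz peaks over a TSS. Weaker Kbz peaks stood 2502 bp upstream (percentile 2.22) and 4483 bp downstream (27.3), at their near edges, each on SB Kac. The window of JUNB was 57.3% covered by control Kac and 67.4% by SB Kac.

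FOS, the prototype of the class, had modest peaks. Control Kac covered its TSS from 3153 bp upstream to 454 bp downstream (chromosome 14, 75275675 to 75279282), at percentile 59.7. SB Kac ran from 2079 bp upstream to 548 bp downstream, at percentile 56.7, and Kbz (75278197 to 75279259) from 631 to 431 bp, at percentile 28.6. Thus all 3 ended within the first part of the gene, and 13.4%, 16.2% and 12.7% of the FOS body were covered, in that order. The medians over the 10 members were 52.7%, 65.0% and 24.2%. The CArG box of FOS lay under all 3 peaks, which ranked below the lower quartiles for peaks over a TSS (72.3, 77.4 and 51.3). A control Kac peak of 789 bp (75273356 to 75274144), 4684 bp upstream of FOS, had no SB Kac peak. It was the single Kac peak in the 10 windows with no counterpart, and it was weak, at percentile 17.6. Over the windows of all protein-coding genes, 69.7% of control Kac peaks overlapped SB Kac and 71.7% of SB Kac peaks control Kac.

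FOSB, EGR1 and MYC had a different arrangement, with the TSS under both Kac lists and Kbz in the window but not over the TSS. This was seen at 3 of the 10 genes and at 9.08% of protein-coding genes. The paper describes its average Kbz signal over all known starts as depleted at the TSS and enriched around it, as for Kac. At EGR1 (chromosome 5) the Kbz peak (138463489 to 138465005) ended 474 bp before the TSS, whereas SB Kac went on to 2335 bp downstream. The body of EGR1 therefore held no Kbz, while SB Kac covered 61.1% of it and control Kac 21.4%. All 5 CArG boxes of EGR1 were inside the Kac peaks and downstream of the Kbz peak. At FOSB (chromosome 19) Kbz peaks lay from 712 to 425 bp upstream (percentile 32.8) and from 734 to 1886 bp downstream (37.0). The CRE and CArG box of FOSB fell into the stretch between them. A further Kbz peak beyond the end of FOSB (45478479 to 45479336) ranked higher, at percentile 76.1. At MYC (chromosome 8) a Kbz peak of 300 bp (127736367 to 127736666) began 136 bp downstream of the TSS, and another of 1292 bp began 2002 bp downstream. Both were weak, at percentiles 33.1 and 20.96.

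Over the 3 genes with CArG boxes, control Kac lay on 7 of 7 sites, SB Kac on 7 and Kbz on 1, that of FOS. Of the 494 CArG boxes in all protein-coding promoters, control Kac lay on 58.7%, SB Kac also on 58.7% and Kbz on 44.3%. Since 5 of the 7 sites share 1 promoter, these counts describe 3 genes. For TGACGTCA the sites under a peak were 2 of 3 in either Kac list (FOSB and DUSP1) and 1 of 3 for Kbz (DUSP1). Both TGATGNAA sites of ATF3 were under peaks of all 3 lists.

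JUND, the AP-1 subunit known for constitutive expression, held the strongest peaks and a bare start. The peak from 18282110 to 18283050 on chromosome 19, 488 bp upstream of the TSS at its near edge, had a Kbz fold of 11.7, exceeded by 13 of 24308 Kbz peaks. The SB Kac peak at the same place (18282030 to 18283238) had a fold of 10.2, with 4 of 63282 above it, and the control Kac peak (18282084 to 18283030) one of 7.93, with 38 of 70326 above it. Folds are not compared across lists, since each list has its own background. From 407 bp upstream to 1198 bp downstream of the JUND start no list had a peak. Further peaks of all lists followed downstream, over the end of the gene, at percentile 54.5 in the control Kac list, 61.7 in SB Kac and 17.4 in Kbz.

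Such a bare TSS, with peaks of each list on both sides within 1.5 kb, was found at 0.265% of protein-coding genes (53 genes, JUND included). This rule describes the arrangement of JUND itself, where the downstream Kbz peak began 1403 bp from the TSS. The share is therefore a description and no test of how unusual JUND is. The bare stretch of 1606 bp had a GC content of 76.3%, above that of 99.3% of protein-coding genes in the same position, where the median was 57.3%. Under the upstream peak, in the 921 bp common to all 3 lists, it was 58.6%. The middle of that peak, printed above, held 1 of the motifs searched, GGGCGG. The part of base composition in the missing peak was not tested.

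**Figure D2:**
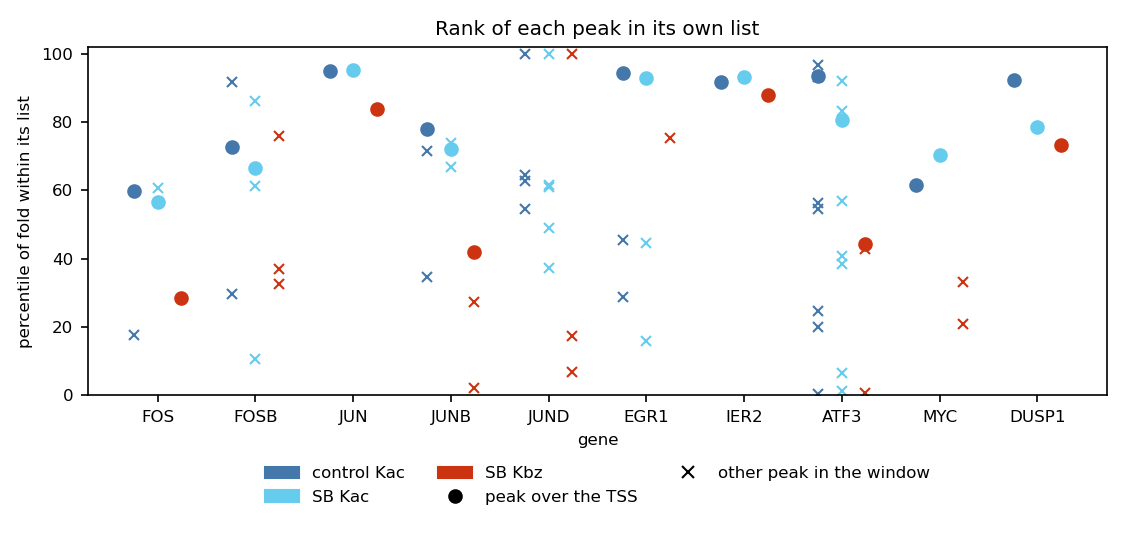
Percentile of the fold of each peak within its own list (0 to 100), by gene, for control Kac, SB Kac and SB Kbz. Dots are peaks over the canonical TSS and crosses are other peaks in the window. The 3 JUND crosses near 100 are its upstream peaks, and the Kbz dot of FOS is at 28.6.

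ATF3 was the one long gene, with a body of 55444 bp, and its acetylation was spread over 8 peaks in each Kac list. Its canonical TSS (chromosome 1, 212608761) was under control Kac for 5994 bp, SB Kac for 10007 bp and Kbz for 3030 bp (212606916 to 212609945). GENCODE places the outermost start of ATF3 43427 bp further upstream. This start lay under a control Kac peak of 12200 bp (percentile 96.8), and under an SB Kac peak of 4701 bp (83.1), and another SB Kac peak of 5197 bp (91.9) lay next to it. Of the 8 SB Kac peaks, 4 overlapped Kbz. The Kbz peak near the outermost start (212566355 to 212567565) began inside the gene, 42406 bp upstream of the canonical TSS, and stood at percentile 42.8, close to the 44.3 of the peak at the canonical TSS. A Kbz peak between them (212596518 to 212597767) was weak, at percentile 0.757. Kbz lay on 18.3% of the SB Kac bases of ATF3, the lowest value among the 10 genes.

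Control and SB Kac were then set side by side. SB Kac covered more bases of the window at 6 genes (JUN, JUNB, EGR1, IER2, MYC and DUSP1) and fewer at 4 (FOS, FOSB, JUND and ATF3), against 40.9% and 43.1% of protein-coding genes. The differences ran from 3472 bp fewer at ATF3 to 1570 bp more at EGR1, and at MYC and DUSP1 they were 132 and 63 bp. Over all windows the totals were close, 94.8 kb for control Kac and 95.0 kb for SB Kac, of 196 kb. No direction was therefore common to the group. At most of these genes the 2 lists also lay on much the same bases. The median share of Kac bases common to both was 78.3% in these windows, against 54.8% over the 16865 protein-coding genes with any Kac. It was highest at DUSP1 (99.5%) and MYC (97.2%) and lowest at FOS (52.4%), EGR1 (50.03%) and JUND (49.3%), which were below the median over all these genes. Kac was wider in the 10 windows than in most, and the part of peak width in this share was not tested.

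The control Kac peaks least covered by SB Kac lay away from the starts. After the FOS peak with no counterpart came a peak of 474 bp downstream of EGR1 (138469727 to 138470200), of which 4.85% was under SB Kac. The next was a peak of 3522 bp upstream of JUND (18284750 to 18288271) with 19.1%, where SB Kac had 2 short peaks of 347 and 346 bp. Other differences lay at peak edges or in the joining of neighbours. At EGR1 the downstream edge was at 819 bp in control and 2335 bp in SB cells. The single control Kac peak over FOSB, which ended 6327 bp downstream of the TSS, corresponded to SB Kac peaks that ended at 3011 and began again at 4284 bp. ATF3 had both arrangements. Its control Kac peaks of 12200 and 3835 bp each corresponded to 2 SB Kac peaks, whereas the control Kac peak over the TSS and the one after it corresponded to 1 SB Kac peak. In broad peak calls a weak stretch decides whether neighbours are joined, so splits and joins need not be differences in mark.

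Every Kbz peak in the windows, 19 of 19, overlapped an SB Kac peak, and 18 of 19 overlapped control Kac. Of the 18196 Kbz peaks in the windows of all protein-coding genes, 95.5% and 94.6% did, so this overlap was general. The exception was a peak of 332 bp downstream of JUND, at percentile 6.77. The bases of Kbz were inside SB Kac entirely at 8 genes, to 92.4% at MYC and to 90.3% at JUND, and the median over protein-coding genes with Kbz was also 100%. Of the 29 SB Kac peaks, 18 overlapped Kbz, against 36.4% of the 45095 SB Kac peaks in all gene windows. At 5 genes (FOSB, JUNB, JUND, ATF3 and MYC) there were 2 or more Kbz peaks, against 30.3% of protein-coding genes.

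**Figure D3:**
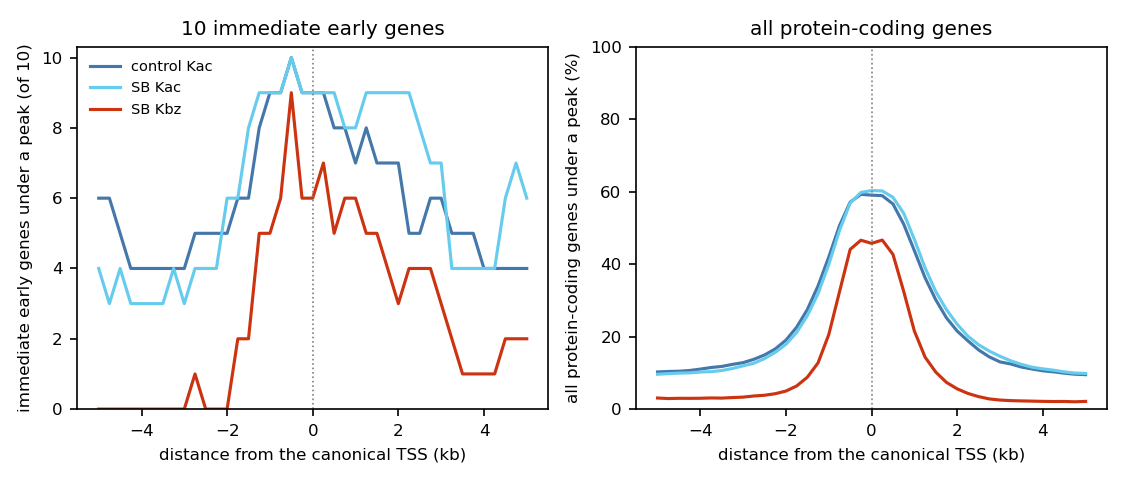
Number of the 10 genes (left) and percent of 20033 protein-coding genes (right) under a peak, by distance from the canonical TSS in kb in steps of 250 bp. For the 10 genes SB Kac stays at 7 or more as far as 3 kb downstream, where it covers 14.6% of all genes, and Kbz has its maximum of 9 genes 0.5 kb upstream.

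By distance from the TSS, Kbz was found at 9 of the 10 genes 0.5 kb upstream, at 6 at the TSS and at 7 at 0.25 kb downstream. Over all protein-coding genes the corresponding values were 44.1%, 45.8% and 46.7%. At 2.5 kb downstream 4 of 10 genes were under Kbz and 8 under SB Kac, against 3.44% and 17.8% of all genes. Upstream at the same distance it was 0 for Kbz and 4 for SB Kac, against 3.82% and 13.9% of all genes. The 0 for Kbz is near that share and depends on the point taken. At 2.75 kb upstream 1 gene was under Kbz, against 3.61%. Within 5 kb of the TSS, Kbz covered more bases downstream than upstream at 7 genes and fewer at 3 (FOS, EGR1 and ATF3). Over all protein-coding genes, 30.9% had more downstream and 31.5% more upstream, and the others had equal amounts or none.

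The pattern was compared with 38 other early response genes, among them further FOS and EGR genes, nuclear receptors of the NR4A family, KLF factors, DUSP phosphatases and the mRNA decay factor ZFP36. Control Kac covered the TSS of 26, SB Kac of 29 and Kbz of 17, beside the background shares given above. Their windows were also widely acetylated, with medians of 43.0% (control Kac), 36.7% (SB Kac) and 15.6% (Kbz). No list had a peak at the canonical TSS of FOSL1, EGR3, EGR4, KLF2, DUSP4 and PLK3, and EGR4 had none in its whole window. The longest control Kac peaks over a TSS among them were 11452 bp at BTG2, an antiproliferative gene, 10983 bp at ZFP36L2, an mRNA decay gene, and 10279 bp at GADD45A, a DNA damage gene. The SB Kac peaks there were 4494, 11642 and 6607 bp long, in that order. SB Kac covered more of the window at 17 of the 38 genes and less at 20.

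Of 20 genes that act upstream, such as SRF, the ELK factors, CREB1, the acetyltransferases EP300 and CREBBP, and the MAP kinases, control Kac covered the TSS of 18, SB Kac also of 18 and Kbz of 15. SRF is also among the 38. Their windows were covered to a median of 6.83%, 7.34% and 1.91%, close to the values of all protein-coding genes. These genes are long, however, with a median body of 79176.5 bp against 5622.5 bp for the 38. Within 5 kb of the TSS their medians were 4073.5 bp (control Kac), 3381.5 bp (SB Kac) and 1771 bp (Kbz), all above those of all genes given above. For the 38 early response genes they were 4261, 4650.5 and 2137.5 bp. At a fixed width the lists were therefore much closer than by share of the window. By share, the widest coverage was found at ATF4, which encodes a stress factor (61.5%, 54.6% and 42.7%), followed for control Kac by MAPK3, the gene of the kinase ERK1 (47.2%), and for SB Kac and Kbz by SRF (32.4% and 21.96%).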

How the data were processed

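Peak lists of 3 ChIP-seq libraries (control Kac, SB Kac, SB Kbz) were analysed. According to the methods and the submitters' processing notes, the authors digested chromatin with micrococcal nuclease, aligned single reads to hg38 with Bowtie2 2.2.6, kept unique reads, removed duplicates with SAMtools 0.1.19 and called peaks per library with MACS2 2.1.1. The broad setting and the background track are not given in the sources used here. The deposited fold is a ratio of read density over background and was used for ranks within its list. The fold itself is given for JUND only and is not compared across lists. Thresholds were set on −log10 p and −log10 q as deposited, and the deposited score, a display value, was not used. All are means over a peak, and broad calling joins neighbouring peaks, which affects lengths and counts. Each list reached down to a −log10 q of 1.31, although the methods name a false discovery rate that corresponds to 2. Because these are means, it is not known whether peaks weaker than stated there are included. Depth was unknown. The input libraries and control Kbz were not analysed here, and 1 sequence and 1 marker gene are not reported here.

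Peaks on the autosomes and sex chromosomes were kept. Genes, canonical starts and bodies came from GENCODE 44, sequences from the hg38 reference, whose bases were identical to 10 of 10 RefSeq promoters (GRCh38.p14) listed for 9 members. A peak belonged to a gene when it shared at least 1 bp with the body plus 5 kb. All members were named, with the peak over the start or the nearest one. The members and lists were chosen with earlier results of these data known. BTG2, ZFP36L2, GADD45A, ATF4, MAPK3 and SRF were singled out after their values were seen. No test between groups was possible. Alternatives were a −log10 q of at least 2 or 5, the 15000 peaks with the highest −log10 p, merging within 1 kb, other windows, a 500 bp overlap, leaving out peaks over another gene's start, and a promoter from 250 bp upstream to 50 bp downstream. Interval overlaps were tested on simulated data (1000 of 1000 planted queries found, 0 of 1150 beside peaks called), and 0 of 20033 windows differed from bedtools 2.31.1 in any list. Python 3.11.15, numpy 2.4.6, pandas 2.3.3, pysam 0.24.0, matplotlib 3.10.9 and samtools 1.23.1 were used.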

Additional observations from a re-analysis of the deposited data

How the results depend on the processing

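No paired analysis was possible because there was 1 library a group, and no replicate could be left out. The 24 results were recomputed 127 times with 1 choice changed at a time. In 96 the count stayed within 1.5 times, and in 31 it moved further. SB Kac covered more of the window than control Kac at 5 or 6 genes under every alternative. Starts could not be recounted under the window and 500 bp alternatives. The windows held peaks of all lists at 7 to 10 genes throughout. The moves follow from fewer peaks or smaller windows. Where peaks within the windows lost a counterpart, the partner had been removed by the filter. From a −log10 q of 2 upwards these were SB Kac peaks at EGR1 (1.94) and ATF3 (1.90). Without peaks over another start it was a control Kac peak downstream of JUND, which covers the start of IQCN.

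Restricted to a −log10 q of 5 or more, the windows contained 12 peaks of control Kac, 10 of SB Kac and 8 of Kbz (8 with SB Kac), SB Kac covered 58.6 kb, its peaks lay over 5 starts, and 3 control Kac peaks had no SB Kac, against 2 from a −log10 q of 2 upwards. With 15000 peaks per list there were 9, 9 and 10 peaks (8 Kbz with SB Kac), 53.6 kb under control Kac, 54.6 kb under SB Kac and 5 starts under either. In the gene body alone there were 17, 17 and 12 peaks (12 Kbz with SB Kac, 0 control Kac without SB Kac), covering 54.0, 54.2 and 19.9 kb. Within 5 kb of the TSS, control Kac covered 60.0 kb and SB Kac 62.8 kb, with 19 SB Kac peaks. With 500 bp of overlap 0 control Kac peaks lacked SB Kac. Without peaks over another start 1 SB Kac peak lacked control Kac. In the shorter promoter 1 member had a CArG box and 1 had GCGNGGGCG.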
